A study of Mus musculus with 12 samples.

Results

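Amino acid transporters of the solute carrier families were described in mouse tumours grown from the pancreatic cancer line CR705, with and without the aryl hydrocarbon receptor. The members are the protein-coding genes whose symbols read Slc1a, Slc3a, Slc6a, Slc7a, Slc36a, Slc38a or Slc43a followed by a number and nothing else, leaving out Slc7a11. That gave 60 genes of the 43432 in the count table, 7 of Slc1, 2 of Slc3, 19 of Slc6, 14 of Slc7, 4 of Slc36, 11 of Slc38 and 3 of Slc43. Slc6a20a and Slc6a20b, whose symbols end in a letter, were not taken. The name of the set is broader than its members' cargo, since some Slc6 members carry taurine, creatine, betaine or monoamines.

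Messenger RNA was sequenced from 12 samples, 6 labelled AHRKO (tumours of CR705 cells knocked out for the receptor) and 6 labelled WT (tumours of wild-type CR705 cells). The labels' extraction text names about 100 mg of tumour, while their growth and treatment texts describe cultured CR705 cells; all 12 samples were taken as tumours from the extraction text. RNA of host cells can then be included, and fewer cells of a type and less RNA per cell cannot be told apart. No sample label names a compound, although the culture texts mention test compounds, and the sources used here do not give the host strain, sex, age or genotype, how the knockout was made, or from how many clones. The labels do not state that each replicate is another animal, and p-values measure only the spread between these samples, which may be technical. AHRKO libraries held 14772343 to 19944273 counts and WT libraries 19293174 to 35881469. Ahr itself was at 102 ± 30.6 CPM in AHRKO and 112 ± 8.18 in WT (counts per 1000000, mean ± SD, n = 6 each) and was not called (adjusted p = 0.606, edgeR quasi-likelihood test), so the transcript does not check the genotype labels. Of the labelled tissue, genes of pancreatic ductal epithelium summed to 702 to 4805 CPM in AHRKO libraries, against 3519 to 4993 CPM in WT libraries. The 9 acinar genes summed to 8.37 to 50.4 CPM in AHRKO libraries and 15.2 to 28.4 in WT libraries. The 6 islet genes summed to 0.581 to 16.4 CPM in AHRKO libraries and 0.397 to 9.09 in WT libraries. Among these, the acinar genes Cela2a, Amy2a5 and Ptf1a and the islet genes Ins1, Ins2 and Sst had 0 counts in every library.

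3 AHRKO libraries stood apart in lists of cell type genes. AHRKO replicate 1 had 702 CPM over the ductal list, against 3028 to 4805 in AHRKO replicates 2 to 6, and 3489 CPM over 14 genes shared by leukocytes, against 598 to 1269 in AHRKO replicates 2 to 6 and 352 to 628 in WT libraries. Its fibroblast sum was 59811 CPM, against 9602 to 22557 in AHRKO replicates 2 to 6 and 16691 to 41058 in WT libraries, and its endothelial sum was 1578 CPM, against 408 to 645 in AHRKO replicates 2 to 6 and 371 to 753 in WT libraries. Skeletal muscle genes summed to 365 CPM in AHRKO replicate 2 and to 1.14 to 8.19 in the other 11 libraries, and adipocyte genes were highest in AHRKO replicate 4, as given beside Slc36a2. All 14 leukocyte genes were higher in AHRKO at an adjusted p under 0.05, and none of the 10 ductal, 10 fibroblast and 8 endothelial genes was called in either direction (edgeR quasi-likelihood test). Of the 32 transporters tested, 12 had their highest value of all 12 libraries in AHRKO replicate 1 and 7 their lowest. The part of cell mixture in the results below was not tested. Fits with the leukocyte score cannot cleanly separate leukocytes from genotype, since 5 AHRKO libraries exceeded every WT library in that score. Nor can they separate leukocytes from AHRKO replicate 1, which scored 7.50, against 4.85 to 6.04 in AHRKO replicates 2 to 6. Calls and sign changes in those fits are given below as values only.

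Amino acid transporters move amino acids across the plasma membrane and the lysosomal membrane. Some form heterodimers, in which a heavy chain (Slc3a1 or Slc3a2) carries a light chain of the Slc7 family to the cell surface and the light chain does the transport. The dimer of Slc3a2 and Slc7a5, called LAT1, exchanges large neutral amino acids such as leucine and tryptophan, and also carries kynurenine, a tryptophan product that can activate the aryl hydrocarbon receptor. Amino acid supply feeds the kinase complex mTORC1, and shortage is read by the kinase encoded by Eif2ak4 and the transcription factor ATF4, which induces several transporter genes.

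Of the 60 members, 32 had enough counts to be tested, and a member could pass that filter through its level in 1 group alone. In AHRKO tumours 6 members rose (Slc7a2, Slc36a2, Slc1a5, Slc7a8, Slc43a2 and Slc3a2) and 3 fell (Slc3a1, Slc7a6 and Slc38a7) at an adjusted p under 0.05 (edgeR quasi-likelihood test, adjusted by Benjamini-Hochberg over all 15449 genes tested). Over all genes tested 15.9% rose and 13.6% fell, against 18.8% and 9.38% of the tested members, so neither share is far from that of the transcriptome. The median log2 fold change (AHRKO over WT) of the tested members was 0.11, against 0.023 for all genes. In CPM the groups did not overlap for 2 members higher in AHRKO (Slc1a5 and Slc7a2), where 6.03% of all tested genes separated that way, and for 3 lower in AHRKO (Slc3a1, Slc7a6 and Slc38a7), where 7.35% did. Counts over all 60 members made up 0.251% to 0.264% of AHRKO libraries and 0.229% to 0.249% of WT libraries, 2 ranges that did not overlap. Slc7a2 alone gave 1144 to 4907 of these counts in AHRKO libraries and 481 to 1552 in WT libraries. The share without Slc7a2 was not computed, so the separation is not shown to be one of the whole set.

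**Figure D1:**
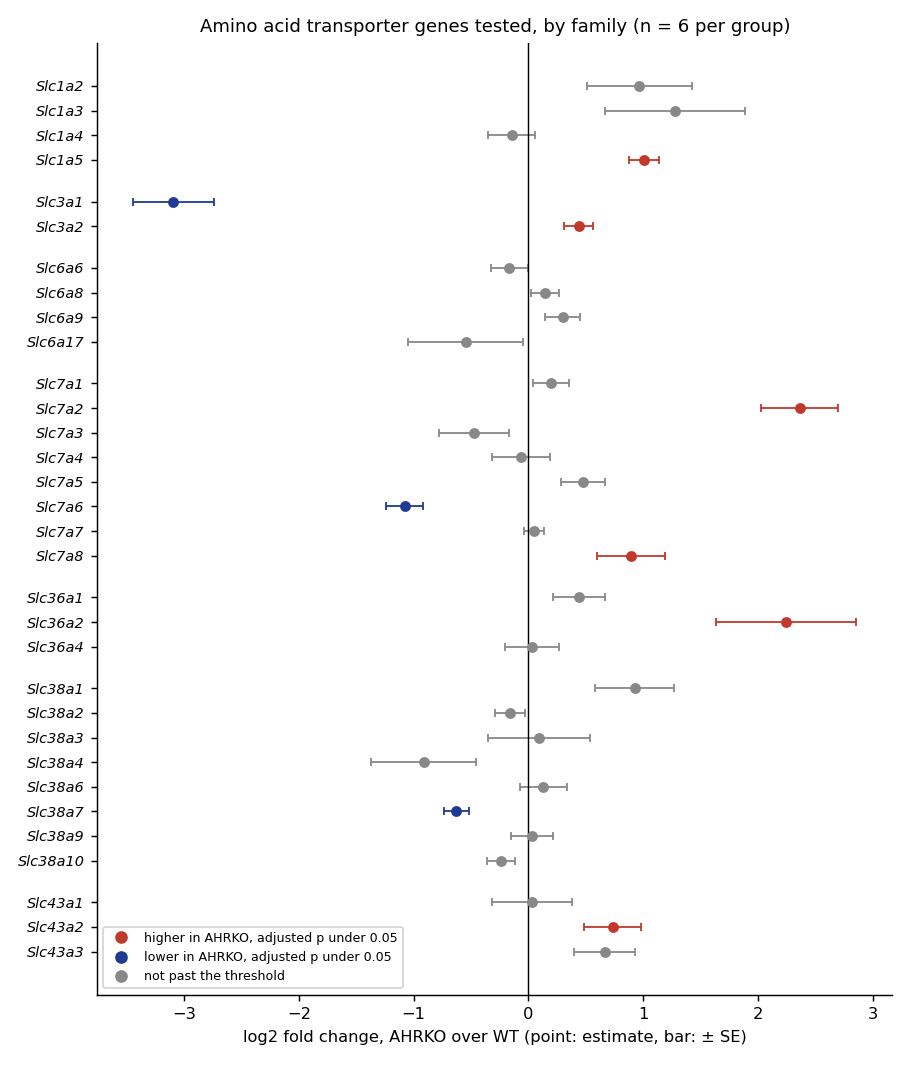
Log2 fold changes (AHRKO over WT) of the 32 transporter genes tested, grouped by family, with the SE as bars; 6 members are marked higher, 3 lower, and 23 did not pass the threshold. Slc7a2 and Slc36a2 lie farthest to the right, and Slc3a1 lies farthest to the left at -3.09.

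Without AHRKO replicate 1 the count was 9 higher and 4 lower, against 19.1% and 17.8% of all genes, with Slc7a5, Slc7a1, Slc1a2 and Slc38a10 added to the same 9 genes. It was 3 higher and 3 lower without WT replicate 4 (11.7% and 10.5% of all genes), without WT replicate 5 (11.7% and 10.5%) and without WT replicate 6 (12.2% and 10.9%), with Slc3a2, Slc7a8 and Slc43a2 lost each time. With the leukocyte score as a covariate 4 were higher and 10 lower, against 12.1% and 13.5% of all genes; Slc1a2 and Slc7a5 were added as higher, Slc6a17, Slc36a4, Slc38a1, Slc38a4, Slc38a10 and Slc43a1 as lower, Slc7a8 turned to lower, and Slc3a2, Slc36a2 and Slc43a2 were lost. limma-voom with sample quality weights called 10 higher and 4 lower, against 19.9% and 19.1%. The calls of Slc1a5, Slc7a2, Slc7a6, Slc38a7 and Slc3a1 were made in each alternative in which the gene was tested.

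Slc3a2 (mm10 chromosome 19, 8706882 to 8723369, minus strand), the heavy chain known as CD98, ran from 203 to 334 CPM in AHRKO libraries (median 232), against 167 to 213 CPM in WT libraries (median 186). The highest WT library, replicate 2 at 213, lay above 2 AHRKO libraries, so the groups overlapped, but all 6 AHRKO libraries lay above the WT median. Its mean was 251 ± 53.4 CPM in AHRKO and 185 ± 17.2 CPM in WT (± SD, n = 6 each), and it rose by a log2 fold change of 0.44 ± 0.13 (SE, adjusted p = 0.0241, edgeR quasi-likelihood test). That call was lost without AHRKO replicate 3 or WT replicate 4, 5 or 6, at adjusted p of up to 0.0563, and with the leukocyte score as a covariate, at 0.31 (adjusted p = 0.268, edgeR quasi-likelihood test).

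The LAT1 light chain Slc7a5 (mm10 chromosome 8, 121881150 to 121907694, minus strand) ran from 92.4 to 259.8 CPM in AHRKO libraries (median 188), against 121 to 158 CPM in WT libraries (median 137). In the plot of CPM by library, 5 AHRKO libraries lie above every WT library, between 182 and 259.8 CPM, and AHRKO replicate 1 lies below every WT library at 92.4. Over all 12 libraries the log2 fold change was 0.48 ± 0.19 (SE) and was not called (adjusted p = 0.0820, edgeR quasi-likelihood test). Without AHRKO replicate 1 it was 0.62 and was called (adjusted p = 0.00202), and with the leukocyte score as a covariate it was 0.93 (adjusted p = 0.0224, both edgeR quasi-likelihood test). The same library had the lowest ductal sum of the 12. Slc7a5 stands on chromosome 8, whose 826 tested genes had a median log2 fold change of -0.31, and the 66 tested genes within 2 Mb of it had a median of -0.18, with 6 higher and 14 lower.

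**Figure D2:**
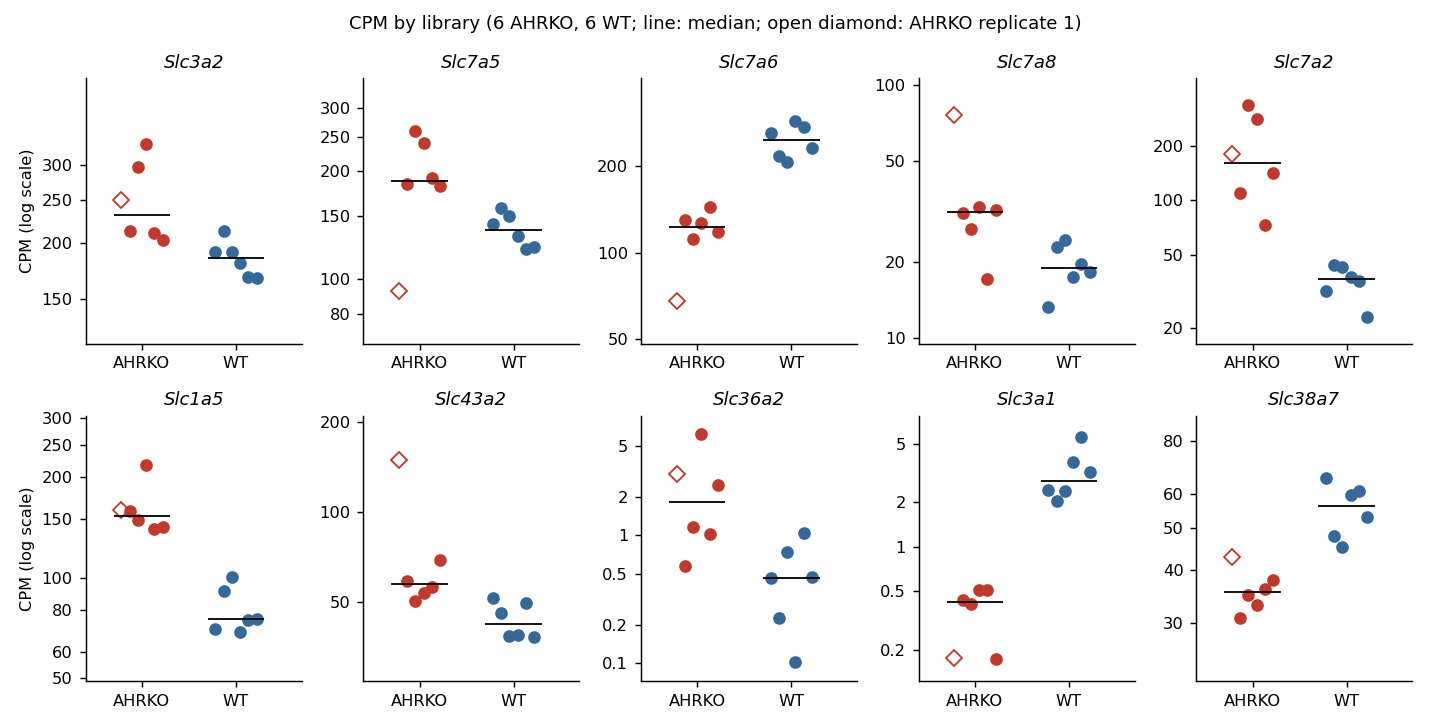
CPM on a log scale for Slc7a5 and the 9 called transporters, each point 1 library, AHRKO left and WT right, with the median as a line and AHRKO replicate 1 as an open diamond. Slc1a5, Slc7a2, Slc7a6, Slc3a1 and Slc38a7 separate the groups, while Slc7a5 separates all but AHRKO replicate 1, at 92.4 CPM.

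The light chain Slc7a6 (mm10 chromosome 8, 106168857 to 106198706, plus strand), which exchanges arginine and other cationic amino acids for neutral ones, was lower in AHRKO. It ran from 67.8 to 145 CPM in AHRKO libraries (median 123), against 207 to 288 CPM in WT libraries (median 246). Every AHRKO library lay below every WT library, and the mean was 117 ± 26.4 CPM in AHRKO and 246 ± 32.3 CPM in WT (± SD, n = 6 each). It fell by 1.08 ± 0.16 (SE) on the log2 scale (adjusted p = 7.75e-04, edgeR quasi-likelihood test). The fall was past the chromosome 8 median of -0.31 and past the median of -0.24 over the 85 tested genes within 2 Mb, of which 27 fell and 4 rose. With the leukocyte score as a covariate the log2 fold change was -0.53 (adjusted p = 0.0222, edgeR quasi-likelihood test).

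Slc7a8, the light chain of LAT2, which carries neutral amino acids large and small, ran from 17.1 to 75.6 CPM in AHRKO libraries (median 31.5), against 13.3 to 24.4 CPM in WT libraries (median 18.9). AHRKO replicate 1 was the highest at 75.6, AHRKO replicate 5 lay inside the WT range at 17.1, and the other 4 AHRKO libraries lay above every WT library. It rose by 0.90 ± 0.30 (SE) on the log2 scale (adjusted p = 0.0371, edgeR quasi-likelihood test), and by 0.54 without AHRKO replicate 1. With the leukocyte score as a covariate its sign turned, to -0.39 (adjusted p = 0.0285, edgeR quasi-likelihood test), and without AHRKO replicate 4 or any of WT replicates 1, 2, 4, 5 and 6 the call was lost. Slc7a7, the light chain whose loss in humans causes lysinuric protein intolerance, was at 30.3 ± 2.67 CPM in AHRKO and 29.3 ± 2.63 CPM in WT, a log2 fold change of 0.051 ± 0.089 (SE) that was not called (adjusted p = 0.696, edgeR quasi-likelihood test). Slc7a10, a light chain for small neutral amino acids, was too low to test, with 53 counts in AHRKO replicate 4, 2 to 23 in its 5 fellow AHRKO libraries and 0 to 10 in WT libraries.

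Levels can be set beside each other once divided by exon length. Slc3a2 was at 71.2 ± 15.1 CPM per kb in AHRKO and 52.5 ± 4.87 in WT (± SD, n = 6 each), the highest of the tested members in AHRKO. Slc7a5 was at 51.7 ± 15.7 CPM per kb in AHRKO and 37.2 ± 4.0 in WT, ranking 2 of 32 in AHRKO and 6 of 32 in WT, and Slc7a6 was at 25.5 ± 5.78 CPM per kb in AHRKO and 53.9 ± 7.07 in WT, ranking 7 of 32 in AHRKO and 2 of 32 in WT. Within the sum of Slc7a5, Slc7a6, Slc7a7 and Slc7a8 per kb, Slc7a5 made up 53.7% to 64.6% in AHRKO replicates 2 to 6 and 38.2% in AHRKO replicate 1, against 30.9% to 41.1% in WT libraries. That sum was 0.923 to 1.61 times the level of Slc3a2 in AHRKO libraries and 1.72 to 2.22 times in WT libraries. In RNA, these light chains together exceeded the heavy chain in every WT library and in all AHRKO libraries but replicate 1. Slc7a10 and the left-out Slc7a11 are not in the sum. These ratios are descriptions of genes already tested above and were given no test.

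**Figure D3:**
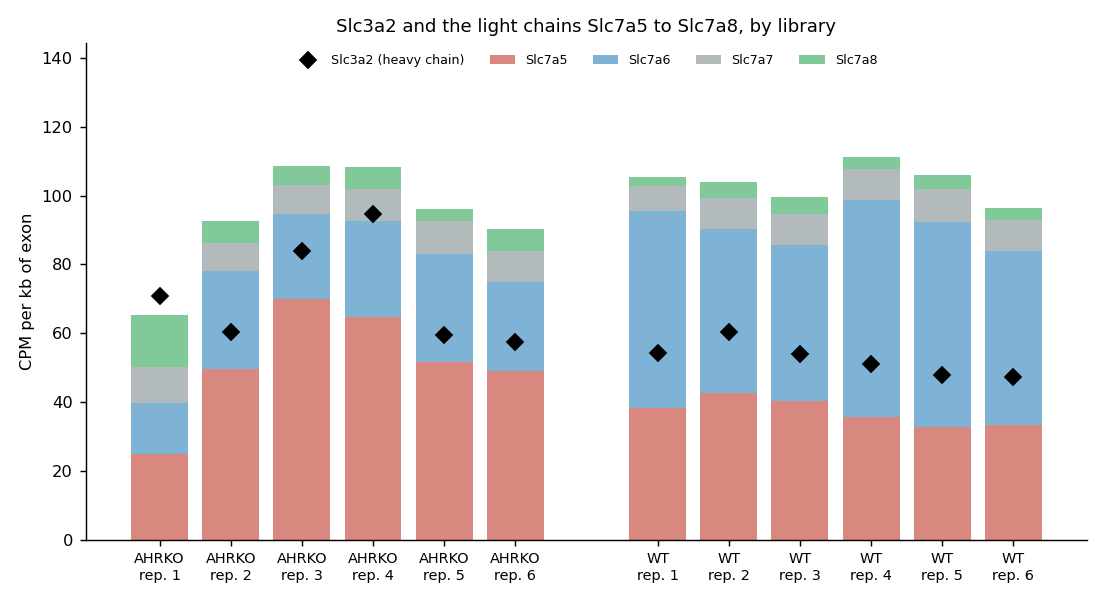
Stacked bars give CPM per kb of exon of the light chains Slc7a5, Slc7a6, Slc7a7 and Slc7a8 in each library, AHRKO left and WT right, and black diamonds give Slc3a2. The stack totals 65.3 to 109 in AHRKO and 96.5 to 111 in WT; Slc7a6 takes less of it in AHRKO, and in AHRKO replicate 1 the diamond stands above the stack.

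Whether a light chain varied with Slc3a2 within a group was examined in 8 relations over log2 CPM, with n = 6 libraries each and exact permutation tests. Slc7a5 correlated with Slc3a2 in WT (Pearson r = 0.97, p = 0.00556, adjusted p = 0.0445, two-sided exact permutation test). Spearman's rho was 0.89 (p = 0.0333, adjusted p = 0.267, exact permutation test), and r was 0.97 without the 2 libraries farthest from the median of Slc3a2. In AHRKO libraries r was 0.35 (p = 0.536) and rho 0.54 (p = 0.297, exact permutation tests, adjusted p = 0.860 and 0.902), and r was -0.97 without the 2 farthest, so no stable relation was found. None of the other 6 relations passed, and the difference between the groups was not tested.

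Promoter sequence is shown for Slc3a2 and Slc7a6, a heavy chain that rose and a light chain that fell. It is the 250 bases before a RefSeq start (GRCm38.p6, the assembly also named mm10), searched on both strands for GCGTG, the core letters of the AHR response element, and for TGATGNAA, letters of the amino acid response element that ATF4 can bind; a GCGTG match is in capitals. The Slc3a2 window is chr19:8713898-8714147 on the minus strand, inside the GENCODE span of the gene, whose 5′ end lies farther upstream, and holds neither motif. The Slc7a6 window shown is chr8:106168604-106168853 on the plus strand and holds GCGTG at 221 and 92 bases before the start. An overlapping Slc7a6 window of another RefSeq start, chr8:106168671-106168920, is not shown. It holds GCGTG at 159 and 61 bases before its own start. The match at 159 is the one at 92 in the window shown, and the match at 61 lies beyond that window.
Slc3a2: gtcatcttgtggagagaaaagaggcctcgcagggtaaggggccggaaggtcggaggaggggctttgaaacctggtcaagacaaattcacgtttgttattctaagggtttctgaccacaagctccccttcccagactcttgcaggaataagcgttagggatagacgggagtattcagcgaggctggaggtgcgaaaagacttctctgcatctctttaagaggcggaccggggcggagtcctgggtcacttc
Slc7a6: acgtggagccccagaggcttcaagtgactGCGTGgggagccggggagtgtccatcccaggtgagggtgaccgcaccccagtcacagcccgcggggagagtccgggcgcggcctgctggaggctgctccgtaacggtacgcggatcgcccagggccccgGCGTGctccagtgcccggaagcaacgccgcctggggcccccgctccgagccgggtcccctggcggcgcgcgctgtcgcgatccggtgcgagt
GCGTG or its reverse complement CACGC is a common string, present in 30.9% of 27025 genes with a window. Of the tested members 21 had a window, and 8 of them held it, namely 1 of 3 that rose, 1 of 3 that fell and 6 of 15 not called. TGATGNAA or TTNCATCA was found in 1 of the 21, Slc7a7, and in 3.91% of all genes with a window. A match describes letters and is no evidence of binding, and a window without a match says nothing of the factor.

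Slc3a1 (mm10 chromosome 17, 85028376 to 85064236, plus strand), the other heavy chain, is known from kidney and gut, where it brings the light chain Slc7a9 to the surface for cystine uptake. It had low levels, 0.174 to 0.515 CPM in AHRKO libraries (median 0.424), against 2.06 to 5.51 CPM in WT libraries (median 2.81), with 3 to 9 counts in AHRKO libraries and 51 to 111 in WT libraries. No library of one group reached the other. It fell by 3.09 ± 0.35 (SE) on the log2 scale (adjusted p = 1.82e-04, edgeR quasi-likelihood test). Exons of Prepl on the opposite strand overlap 26.5% of the exon bases of Slc3a1, and the sources used here do not give the strand setting of the counting, so reads of the pair cannot be told apart there. Of 7 genes of kidney and intestine epithelium, a list without Slc3a1, 2 were tested and 1 fell, the endocytic receptor gene Lrp2, at 0.346 ± 0.479 CPM in AHRKO and 44.0 ± 16.4 in WT (log2 fold change -7.01, adjusted p = 4.87e-05, edgeR quasi-likelihood test). The list summed to 1.07 to 49.5 CPM in AHRKO libraries (median 12.2), against 37.2 to 87.7 CPM in WT libraries (median 65.8). That sum includes Lrp2, so it does not stand apart from the fall of that gene. Umod was at 0 in every library, and the part of such cells in Slc3a1 was not tested. Slc7a9 was nearly absent in both groups, with 0 to 7 counts in AHRKO libraries and 0 to 3 in WT libraries.

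Among the cationic transporters, which carry arginine, lysine and ornithine without a heavy chain, 1 gene changed. Slc7a2 (mm10 chromosome 8, 40862396 to 40922308, plus strand), known as CAT2 and inducible in macrophages, ran from 73.6 to 334 CPM in AHRKO libraries (median 159.9), against 22.9 to 44.3 CPM in WT libraries (median 37.1). AHRKO replicates 3 and 4 were highest, at 334 and 279.6, AHRKO replicate 5 was lowest of its group at 73.6, and all 6 lay above every WT library. It rose 5.16-fold, a log2 fold change of 2.37 ± 0.34 (SE, adjusted p = 6.39e-04, edgeR quasi-likelihood test), and by 1.97 on the log2 scale with the leukocyte score as a covariate (adjusted p = 0.0160). Of the 15 other tested genes within 2 Mb, 10 fell and 1 rose, with a median log2 fold change of -0.57. Exons of Gm26584 on the opposite strand overlap 6.95% of its exon bases.

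Slc7a1, the widely expressed CAT1, was at 151 ± 33.4 CPM in AHRKO and 131 ± 19.7 CPM in WT, a log2 fold change of 0.20 ± 0.16 (SE) that was not called (adjusted p = 0.357, edgeR quasi-likelihood test). AHRKO replicate 1 was the lowest of the 12 libraries at 88.0 CPM, and without it the value was 0.32 (adjusted p = 0.0366). Slc7a3, the CAT3 gene, had a log2 fold change of -0.47 ± 0.31, the 6 AHRKO values all under the WT median yet overlapping WT, and Slc7a4, for which no transport is established, had -0.060 ± 0.25 (adjusted p = 0.267 and 0.879, edgeR quasi-likelihood test).

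The neutral exchanger Slc1a5 (mm10 chromosome 7, 16781340 to 16798274, plus strand), called ASCT2 and a main route of glutamine into cells, ran from 139.7 to 218 CPM in AHRKO libraries (median 153), against 68.6 to 101 CPM in WT libraries (median 74.9). The groups did not overlap, and the lowest AHRKO library, replicate 5 at 139.7, stood above the highest WT library, replicate 3 at 101. It rose 2.01-fold, a log2 fold change of 1.01 ± 0.13 (SE, adjusted p = 3.97e-04, edgeR quasi-likelihood test). The value was 1.01 without AHRKO replicate 1 and 0.77 with the leukocyte score as a covariate (adjusted p = 0.0104). Chromosome 7, where it lies, had a median log2 fold change of 0.21, and 9 of the 30 other tested genes within 2 Mb rose and 1 fell. Its level per length was 38.5 ± 7.01 CPM per kb in AHRKO and 19.2 ± 3.09 in WT, which ranked 4 of 32 in AHRKO and 8 of 32 in WT.

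The other Slc1 members did not pass the test. Slc1a4, the ASCT1 exchanger of serine and alanine, was at 39.6 ± 13.9 CPM in AHRKO and 43.8 ± 4.26 CPM in WT (log2 fold change -0.14 ± 0.21, adjusted p = 0.627, edgeR quasi-likelihood test) and varied widely in AHRKO, with 19.9 CPM in replicate 1 and 59.5 in replicate 4. Slc1a2, the astrocyte glutamate transporter GLT-1, ran from 1.54 to 18.7 CPM in AHRKO libraries (median 9.29), against 3.0 to 7.48 CPM in WT libraries (median 4.66), and 1 AHRKO library, replicate 1, lay below every WT library. Its log2 fold change was 0.97 ± 0.46 (adjusted p = 0.127), 1.20 without AHRKO replicate 1 (adjusted p = 0.0139) and 2.62 with the leukocyte score as a covariate (adjusted p = 0.00435, all edgeR quasi-likelihood test). Slc1a3, the glutamate transporter GLAST, had 1.28 ± 0.61, spread from 0.824 to 9.57 CPM over AHRKO libraries and from 0.588 to 3.52 over WT libraries. The glutamate transporter genes Slc1a1, Slc1a6 and Slc1a7 were too low to test, with at most 17, 3 and 18 counts in a library.

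In the Slc38 family of sodium-coupled neutral transporters 1 of 8 tested members changed. Slc38a7 (mm10 chromosome 8, 95835920 to 95853539, minus strand), which exports glutamine and asparagine from lysosomes, ran from 30.8 to 42.7 CPM in AHRKO libraries (median 35.4), against 45.3 to 65.4 CPM in WT libraries (median 56.5), without overlap. It fell by 0.63 ± 0.11 (SE) on the log2 scale (adjusted p = 0.00190, edgeR quasi-likelihood test), with 21 of the 43 other tested genes within 2 Mb falling too and 6 rising, at a median of -0.35. Slc38a2, the plasma membrane transporter SNAT2 that cells induce when amino acids are short, was one of the highest members at 299 ± 42.9 CPM in AHRKO and 333 ± 57.6 CPM in WT, a log2 fold change of -0.16 ± 0.13 that was not called (adjusted p = 0.375, edgeR quasi-likelihood test).

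Slc38a1, the glutamine transporter SNAT1, ran from 8.69 to 41.7 CPM in AHRKO libraries (median 16.1), against 6.66 to 12.5 CPM in WT libraries (median 9.06), with the highest value, 41.7, in AHRKO replicate 1. Its log2 fold change was 0.93 ± 0.34 and did not pass (adjusted p = 0.0592), it was 0.50 without AHRKO replicate 1 (adjusted p = 0.106), and it turned to -0.53 with the leukocyte score as a covariate (adjusted p = 0.0430, all edgeR quasi-likelihood test). Slc38a1 was called as higher without AHRKO replicate 3 at 1.06 (adjusted p = 0.0435) and without AHRKO replicate 5 at 1.07 (adjusted p = 0.0274, both edgeR). DESeq2 called it at 0.93 (adjusted p = 0.0269) and limma-voom at 0.68 (adjusted p = 0.0352). Slc38a10 was at 241 ± 51.4 CPM in AHRKO and 284 ± 18.9 CPM in WT (log2 fold change -0.23 ± 0.12, adjusted p = 0.164, edgeR quasi-likelihood test). Every AHRKO library but replicate 1, which was highest of all at 343 CPM, lay below every WT library, and without replicate 1 the value was -0.36 (adjusted p = 0.00372). Slc38a9, the lysosomal arginine sensor of mTORC1, had a log2 fold change of 0.033 ± 0.18, Slc38a6 0.13 ± 0.20, Slc38a3, the glutamine transporter SNAT3, 0.092 ± 0.45 and the imprinted Slc38a4 -0.91 ± 0.46, none of them called. With the leukocyte score as a covariate Slc38a4 was called at -2.36 (adjusted p = 0.0107) and Slc38a10 at -0.63 (adjusted p = 0.00320, edgeR quasi-likelihood test). Slc38a5, Slc38a8 and Slc38a11 had at most 2, 3 and 8 counts in a library.

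The Slc36 family carries small amino acids with protons. Slc36a2 (mm10 chromosome 11, 55158470 to 55185077, minus strand) was low, 0.581 to 6.15 CPM in AHRKO libraries (median 1.83), against 0.102 to 1.04 CPM in WT libraries (median 0.469), and rose by 2.25 ± 0.61 (SE) on the log2 scale (adjusted p = 0.0166, edgeR quasi-likelihood test). AHRKO replicate 4 was highest at 6.15 CPM, and AHRKO replicates 2 and 5 lay inside the WT range. With the leukocyte score as a covariate the value was 1.33 and was not called (adjusted p = 0.322), and without AHRKO replicate 4 it was 1.71 (adjusted p = 0.0403, edgeR quasi-likelihood test). The adipocyte list, 6 genes of which 2 rose and none fell, summed to 399.5 CPM in AHRKO replicate 4, to 40.8 to 133 across AHRKO replicates 1, 2, 3, 5 and 6 and to 35.3 to 88.7 in WT libraries, and Slc7a10 was highest in that library too; the part of adipocytes in these values was not tested. Slc36a1, which exports amino acids from lysosomes, had a log2 fold change of 0.44 ± 0.23, and Slc36a4 had 0.031 ± 0.23 (adjusted p = 0.162 and 0.937, edgeR quasi-likelihood test). Slc36a4 was called with the leukocyte score as a covariate, at -0.85 (adjusted p = 0.00532, edgeR quasi-likelihood test). Both were highest in AHRKO replicate 1, at 96.6 and 48.2 CPM. Slc36a3 had at most 7 counts in a library.

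In the Slc43 family, Slc43a2 (mm10 chromosome 11, 75531694 to 75577575, plus strand), the leucine and methionine transporter LAT4, ran from 50.7 to 149.8 CPM in AHRKO libraries (median 57.6), against 38.3 to 51.7 CPM in WT libraries (median 42.5). AHRKO replicate 1 stood at 149.8, and AHRKO replicate 3, the lowest of its group at 50.7, lay below the highest WT library. It rose by 0.74 ± 0.25 (SE) on the log2 scale (adjusted p = 0.0409, edgeR quasi-likelihood test) and by 0.40 without AHRKO replicate 1 (adjusted p = 0.0138). The call was lost without AHRKO replicate 6 or any 1 of the 6 WT libraries, and the value was -0.083 with the leukocyte score as a covariate (adjusted p = 0.832). Slc43a1, the LAT3 transporter, was at 0.032 ± 0.35 on the log2 scale, and Slc43a3, a carrier of purine nucleobases, at 0.67 ± 0.27 (adjusted p = 0.957 and 0.0778, edgeR quasi-likelihood test). Slc43a1 was called with the leukocyte score as a covariate, at -1.15 (adjusted p = 0.0209, edgeR quasi-likelihood test), and Slc43a3 was called with DESeq2 at 0.67 (adjusted p = 0.0496). All 3 genes were highest in AHRKO replicate 1. Exons of Gm45606 on the opposite strand overlap 9.18% of the exon bases of Slc43a2.

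The Slc6 family, whose members use sodium and chloride, had 19 members and 4 tested, none called. Slc6a6, the taurine transporter, had the highest level per length of all members in WT, 48.5 ± 11.3 CPM per kb in AHRKO and 54.4 ± 7.34 in WT (± SD, n = 6 each), and a log2 fold change of -0.17 ± 0.16 (adjusted p = 0.457, edgeR quasi-likelihood test). Slc6a8, the creatine transporter, was at 121 ± 12.2 CPM in AHRKO and 109.8 ± 19.9 CPM in WT (0.15 ± 0.12 on the log2 scale), and the glycine transporter gene Slc6a9, of whose exon bases 27.8% overlap Ccdc24 on the opposite strand, had 0.30 ± 0.15. Slc6a17, a vesicular transporter of neurons, had -0.55 ± 0.50, and -2.26 with the leukocyte score as a covariate, where it was called (adjusted p = 0.00659, edgeR quasi-likelihood test). The GABA and betaine transporter genes Slc6a11, Slc6a12 and Slc6a13, the monoamine transporter genes Slc6a2, Slc6a3 and Slc6a4, the glycine transporter gene Slc6a5 and the remaining Slc6a15, Slc6a16, Slc6a19 and Slc6a21 had at most 34 counts in any library. Slc6a7, the proline transporter of brain, had 95 counts in AHRKO replicate 1, 2 to 12 in AHRKO replicates 2 to 6 and 2 to 20 in WT libraries.

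In all, 28 members were too low to test. Slc6a14, Slc6a18 and Slc7a12 had 0 counts in all 12 libraries, which allows each a level of up to 0.0123 CPM over the 244020076 counts together (3 counts, counting error only). Slc7a13, Slc7a14 and Slc7a15 had at most 2, 4 and 19 counts in a library.

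The genes around the transporters were read from lists of their pathway. Of 26 genes listed for the amino acid response, 9 rose and none fell, where 15.9% of all genes rose and 13.6% fell. The list holds ATF4 targets but also Atf4 itself and kinase genes upstream of it. Mthfd2, a mitochondrial enzyme of folate metabolism, was at 91.4 ± 38.6 CPM in AHRKO and 30.2 ± 2.96 in WT and rose by 1.60 ± 0.23 (SE, adjusted p = 7.41e-04), the transcription factor genes Cebpg and Atf5 rose by 0.56 and 1.00, and the serine synthesis gene Psat1 rose by 0.69 on the log2 scale (adjusted p of at most 0.0115, edgeR quasi-likelihood test). Atf4 itself, named after its value was seen, rose by 0.54 ± 0.16 (adjusted p = 0.0266, edgeR quasi-likelihood test). The list's median log2 fold change was 0.53, against 0.023 over all tested genes. The list summed to 1591, 1600.5 and 1594 CPM in AHRKO replicates 1, 2 and 6, and these 3 lay inside the WT range of 1253 to 1729. Without AHRKO replicate 1, an alternative chosen after seeing the data, 11 of the 26 rose and none fell, where 19.1% of all genes rose and 17.8% fell.

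Genes of amino acid sensing by mTORC1 went both ways, with 5 higher and 8 lower of 30, where 15.9% of all genes rose and 13.6% fell. Those that rose were the small Ragulator subunits Lamtor1 (0.64 ± 0.10), Lamtor3 (0.45 ± 0.081), Lamtor4 and Lamtor5, which anchor the Rag GTPases to lysosomes, and Rheb, the GTPase that activates mTORC1. Among those that fell were Wdr59 (-0.67 ± 0.14), a subunit of the GATOR2 complex, Tsc2 (-0.47 ± 0.10), an inhibitor of Rheb, and Rptor, the scaffold of the complex itself (adjusted p from 0.00122 for Lamtor1 to 0.0217 for Rheb, edgeR quasi-likelihood test). Lamtor4, Lamtor5, Rheb and Rptor were named after their values were seen. The list's median was 0.028, and -0.16 without AHRKO replicate 1, where 5 rose and 7 fell.

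Of 27 amino acid enzymes 5 rose and 3 fell among 25 tested, beside 15.9% and 13.6% of all genes. Without AHRKO replicate 1 9 of the 25 rose and 3 fell, where 19.1% and 17.8% of all genes did. Gls2, the liver-type glutaminase, fell by 1.25 ± 0.16, and the mitochondrial aspartate aminotransferase Got2 fell by 0.46. The cytosolic aspartate aminotransferase Got1 rose by 0.75 and the methionine adenosyltransferase gene Mat2a by 0.37 (adjusted p of at most 0.00939 for all of these genes, edgeR quasi-likelihood test). Shifts of a gene's chromosome or neighbours, given above for some transporters, were not set beside the values of this or the other lists. Arg1, the arginine-cleaving enzyme of liver and of some macrophages, named after its value was seen, was at 542 ± 378 CPM in AHRKO and 196 ± 59.8 in WT and rose by 1.46 ± 0.42 (adjusted p = 0.0208, edgeR quasi-likelihood test). Macrophage and monocyte genes, 10 of 12 of which rose and none of which fell, summed to 1215 to 7318 CPM in AHRKO libraries, against 927 to 1796 CPM in WT libraries. The part of such cells in Arg1 and Slc7a2 was not tested.

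Among amino acid and peptide carriers of other families, 5 rose and 1 fell of 15 tested, and 5 rose and 2 fell of 16 without AHRKO replicate 1, where 15.9% and 13.6% of all genes rose and fell in the fit of all 12 libraries and 19.1% and 17.8% without that library. The mitochondrial aspartate-glutamate carrier Slc25a12 rose by 0.54, the glutamate carrier Slc25a22 by 0.52, the vesicular glutamate transporter Slc17a6 by 1.44 and Slc15a3, an endosomal peptide transporter of immune cells, by 1.59 on the log2 scale (adjusted p from 0.00252 to 0.0245, edgeR quasi-likelihood test). Of 11 tested enzymes in the metabolism of tryptophan and kynurenine, which are themselves cargo of LAT1, 5 rose and none fell. Kmo (2.29 ± 0.47), Il4i1 (1.51 ± 0.32), Kynu and Haao led (adjusted p from 0.00443 to 0.0230, edgeR quasi-likelihood test). Kmo, Kynu and Il4i1 are known from myeloid cells, whose part was not tested. Of 10 proliferation genes 2 rose and none fell, Pcna rising by 0.46 ± 0.091 and Cdk1 by 0.44 ± 0.15 (adjusted p = 0.00343 and 0.0384, edgeR quasi-likelihood test). Without AHRKO replicate 1, whose summed level of 793 CPM was the lowest of all 12 libraries, 8 rose and none fell, where 19.1% of all genes rose.

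**Figure D4:**
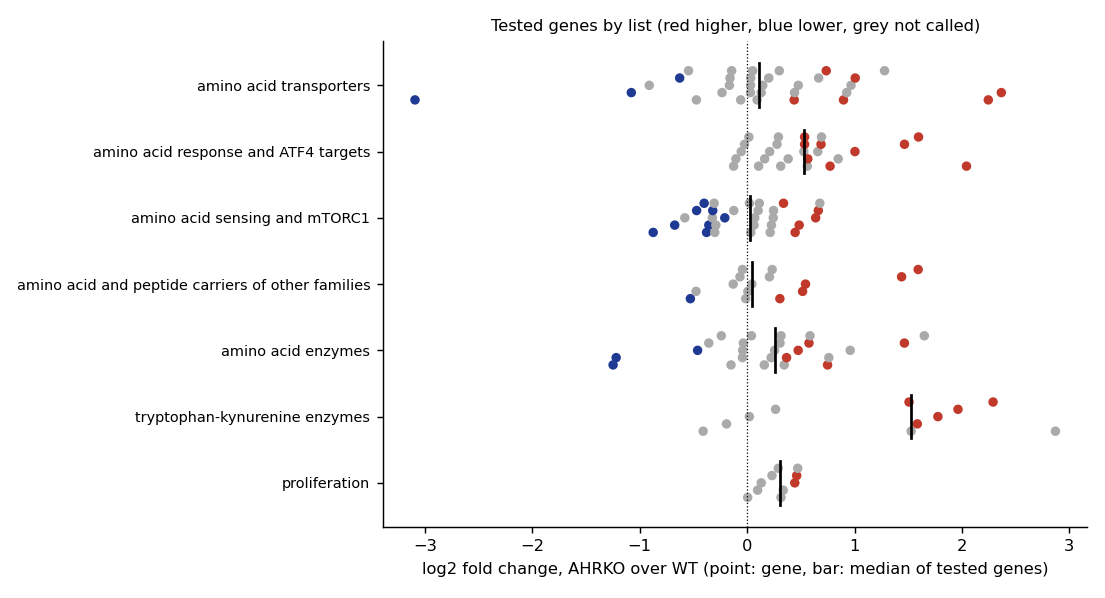
Log2 fold changes (AHRKO over WT) of the tested genes of the transporters and 6 related lists, each point a gene and each bar the list's median; red marks higher, blue lower, grey not called. The transporters lie on both sides of 0 with a median of 0.11, and the list of amino acid response and ATF4 targets has 9 red points and no blue one.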

How the data were processed

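RNA of 12 CR705 tumour samples, 6 AHRKO and 6 WT, was compared. The submitters' processing notes name HISAT2, SAMtools, HTSeq, DESeq2 and the build mm10, with no role, version, annotation or strand setting. The authors deposited raw read counts per gene, whole numbers of 0 or more, and name no molecular identifiers, so limits from depth cover counting error only. Symbols, positions and exon lengths came from GENCODE M21 by gene identifier (42462 of 43432 matched), and promoter windows from RefSeq, GRCm38.p6.

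Genes were kept by filterByExpr and scaled by TMM. The 2 genotypes were tested against each other in edgeR (quasi-likelihood test on both sides, genotype the sole term), with Benjamini-Hochberg adjustment over 15449 genes and a threshold of 0.05. The SE of a log2 fold change was derived from its F value. CPM use TMM-scaled totals, log2 CPM a prior count of 2, and CPM per kb the union of a gene's exons, which understates genes with long unused exons. The leukocyte score is the mean log2 CPM of 14 genes; 5 of 6 AHRKO libraries exceed all WT in it, so score and group share much of their variation. No 2 libraries of a group agreed within sampling noise (lowest chi-squared per degree of freedom 13.6).

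Members and lists were chosen with earlier results of these data known. Named in full were Slc7a5, Slc3a2 and all called members, and of each pathway list up to 4 called genes of smallest p. 1 untested member is not reported here by name. Alternatives were limma-voom with quality weights, the Wald test of DESeq2, RLE and upper-quartile scaling, no filter, a stricter filter (10 counts in 6 libraries, mean log2 CPM of 1), a replicate block, each library left out, and the leukocyte score as a covariate; counts of the pathway lists without AHRKO replicate 1 were added after seeing the data. The pipeline was tested on simulated data. edgeR was version 4.0.16, DESeq2 1.42.0 and limma 3.58.1, under R 4.3.3.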

Additional observations from a re-analysis of the deposited data

Results flagged for a closer look

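Of 64 groups of 6 libraries (32 tested members in AHRKO and in WT), 13 had a highest or lowest library far from its nearest neighbour, by Dixon's criterion. Chance alone meets it in about 1 of 20 groups of independent normal values. The 64 groups share the same libraries, so that rate cannot judge the count of 13, and the rate over all genes was not computed. In 9 of the 13 the library was AHRKO replicate 1 and the value was the highest of its group. These were, each set against the range of the other 5 AHRKO libraries, Slc7a8 at 75.6 CPM against 17.1 to 32.8, Slc36a4 at 48.2 CPM against 17.1 to 25.3, Slc38a1 at 41.7 CPM against 8.69 to 16.6, Slc38a6 at 27.9 CPM against 11.5 to 15.8, Slc38a9 at 25.6 CPM against 11.9 to 14.2; Slc38a10 at 343 CPM against 204 to 237, Slc43a1 at 17.1 CPM against 4.46 to 8.15, Slc43a2 at 149.8 CPM against 50.7 to 69.3, Slc43a3 at 105 CPM against 40.7 to 52.5. That library also had the highest leukocyte, fibroblast and endothelial sums and the lowest ductal sum of the 12, as given above, and their part in these values was not tested.

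AHRKO replicate 4 stood above the other AHRKO libraries for Slc1a5 at 218 CPM against 139.7 to 159. In WT, replicate 1 stood above the others for Slc1a4 at 51.9 CPM against 40.7 to 44.8 and below them for Slc7a7 at 24.2 CPM against 29.3 to 32.0, and replicate 3 stood above them for Slc7a1 at 169 CPM against 117 to 135.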

How the results depend on the processing

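The 6 higher and 3 lower members became 10 and 4 with limma-voom and 4 and 10 with the leukocyte score as a covariate, and ran from 3 to 9 higher and 3 to 4 lower with 1 library left out. With DESeq2, RLE or upper-quartile scaling, no filter and the stricter filter (where Slc3a1 and Slc36a2 were not tested) both counts stayed within 1.5 times. The cause of these shifts was not tested. Without a filter Slc6a13, Slc7a10 and Slc36a3 were added, all at low counts, and Slc43a2 was lost. Over all genes 2451 higher and 2106 lower became 1114 and 1240 with the block and between 1822 and 2980 higher and between 1632 and 2778 lower with 1 library left out. Slc7a5 was called with limma-voom at 0.61 (adjusted p = 0.00236), with the leukocyte score at 0.93 and without AHRKO replicate 1, and ran from 0.37 to 0.62 with 1 library left out. Slc3a2 ran from 0.34 to 0.49 with 1 library left out and was not called with the leukocyte score (0.31), under which Slc7a8 reversed to -0.39 and Slc43a2 to -0.083. Slc1a5, Slc7a2, Slc7a6, Slc38a7 and Slc3a1 kept direction and call in all alternatives that tested them, 20 each but 19 for Slc3a1. Depth limits the 28 untested members.

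The labels give replicate numbers without saying whether equal numbers pair samples. Same-numbered libraries deviated from their group means with correlations of -0.47 (replicate 1) to 0.029 (replicate 6), and no AHRKO library matched the WT library of its own number best. No sign of pairing was thus seen, though a pairing that leaves no such correlation would be missed. With the replicate block 2 members were higher and 3 lower (Slc3a2, Slc7a8, Slc36a2 and Slc43a2 were lost). Of all 15449 genes tested 1114 were higher and 1240 lower in that fit, so calls dropped across the transcriptome too. Slc3a2 stood at 0.42 with the block (adjusted p = 0.0611, edgeR quasi-likelihood test).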
